A study of Saccharomyces cerevisiae with 16 samples.

Results

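The comparison described here is that of wild-type (WT) *S. cerevisiae* held for 2 h in 200 mM hydroxyurea (HU) with the same strain before the drug was added. It uses 4 RNA-seq libraries, 2 replicates of each group, out of the 16 libraries of a series that follows WT and *lsm1∆* cells through 0, 1, 2 and 4 h of HU. The series has no untreated library at 1, 2 or 4 h. Changes due to the drug and to the further time in culture therefore cannot be told apart. All cells grew in the rich medium YPD, and the WT is BY4741, a laboratory haploid that carries no engineered allele beyond its nutritional markers. Abundance is given in FPKM, a count of fragments scaled to the length of the gene and the size of the library, as estimated by Cufflinks. A gene was taken as a member of the comparison when its estimate did not fail in any of the 4 libraries and it reached at least 5 FPKM in both libraries of at least 1 group, which 6496 of 7126 listed genes did. Of these, 6174 reached the minimum in both groups, 269 only at 2 h and 53 only without HU. *YCR102C*, at 5.0002 FPKM, was the member nearest to the minimum, and *YOR178C*, at 4.99 FPKM, was the nearest gene outside it. There were 84 members between 5 and 6 FPKM by this measure and 100 genes between 4 and 5 FPKM.

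HU inactivates ribonucleotide reductase, the enzyme that makes deoxyribonucleotides (dNTPs), so that replication forks slow and stall for want of precursors. In budding yeast the stalled forks activate the checkpoint kinases Mec1, Rad53 and Dun1, which hold the cells in S phase with a bud and a replicating nucleus. Dun1 signalling also relieves the repressor Rfx1, also known as Crt1, from the promoters of the reductase genes and of *HUG1*. The drug is also known to set off a general stress response, in which growth genes fall and the genes of stored carbohydrate, chaperones and antioxidant enzymes rise.

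The marker genes were those of a BY4741 haploid of mating type a in all 4 libraries. *URA3*, *LEU2* and *MET17* were listed at 0, whereas *HIS3* was detected at 61.0 to 69.2 FPKM. The a-factor gene *MFA1* lay between 5861 and 9675 FPKM and the receptor gene *STE2* between 283 and 344 FPKM, while the α-factor gene *MF(ALPHA)1* was at most 1.47 FPKM and *STE3* at most 4.29 FPKM. Of the other α-cell genes, *MF(ALPHA)2* lay between 10.2 and 18.7 FPKM and *SAG1* between 8.96 and 15.6 FPKM. *LSM1*, which the other strain of the series lacks, had 171 and 181 FPKM without HU and 157 and 149 FPKM at 2 h. The files used here give no read counts. In genes of very few reads FPKM moves in whole-read steps, and the steps of 19 to 36 such genes per library placed the depth of the second untreated library at 0.914, and of the 2 h libraries at 0.923 and 0.980, of the depth of the first untreated library. The interval that Cufflinks gives for each value had a median half-width of 15.7 to 19.7% for members between 5 and 10 FPKM and of 9.87 to 10.9% between 10 and 100 FPKM. Over the members tested, the correlation of log2 values was 0.968 between the untreated libraries and 0.974 between the 2 h libraries, against 0.925 to 0.933 between groups. The sum of FPKM was 2397948 and 2467852 without HU and 2096208 and 1933002 at 2 h, and the median of members was 35.3 and 33.3 FPKM without HU and 39.9 and 37.3 FPKM at 2 h.

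The test was limma's, on log2(FPKM + 1), in one linear model of the 16 libraries that gives each of the 8 conditions its own mean, and a gene is termed called when its p-value, after Benjamini-Hochberg adjustment over the 6977 genes tested, is under 0.05. Changes are given as log2 of the 2 h level over the untreated level, ± the standard error of the fit, and are smaller for low genes than the ratio of FPKM would be. The median change of all tested genes was 0.16 on this scale. Because of this shift, calls are also reported with the median of every library set equal, which is termed centring. The replicates are described as technical in the methods of the study and as a repeated experiment in the series, so the p-values measure only the spread between these libraries, which may not include that between cultures.

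After 2 h of HU, 2076 of the 6465 members tested were called higher and 825 were called lower by limma, against 31.1% and 11.9% of all tested genes (42.9% in either direction). The other 3564 members tested were not called, and 31 members were not tested because their estimate failed in another library of the series. Among the called members, 71.6% were higher on the deposited scale and 46.1% after centring, when 1221 members were called higher and 1425 lower, against 18.3% and 20.5% of all tested genes. Every one of the 1221 was also among the 2076, and each of the 825 was also among the 1425, so that centring reversed no call of the members. A change of at least 2-fold was called in 388 members that rose and 130 that fell, against 6.09% and 1.88% of all tested genes. After centring these counts were 250 and 267, so the excess of rises depends on the scale. At least 8-fold changes were called in 29 rises and 7 falls. The 2 libraries of one group lay wholly above those of the other in 4807 members, against 72.3% of all tested genes, and this held for each called member. Of the 269 members that passed the minimum only at 2 h, 164 were called higher and none lower, and of the 53 that passed only without HU, 7 were called lower and none higher, which the way they were chosen had to give. Genes named below that passed only at 2 h include *RNR3*, *ARG3*, *ATG34*, *GPM2*, *CYC7*, YDR015C, *YCR108C* and YDL022C-A. *PIR3* and tC(GCA)Q passed only without HU. The counts of their lists include them, and the direction of their change has the same limit.

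**Figure D1:**
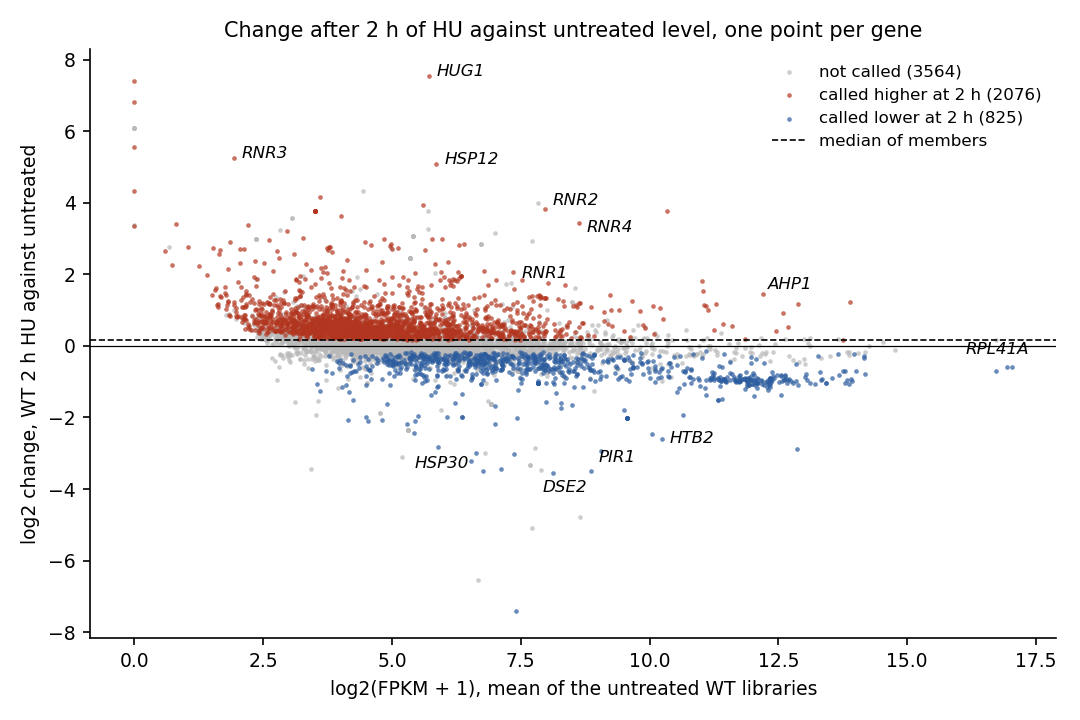
Change after 2 h of HU (log2, vertical axis) against the untreated level (log2(FPKM + 1), horizontal axis), with one point for each of the 6465 members tested. Red points are the 2076 called higher, blue points the 825 called lower and grey points the rest, and the dashed line is the median of members. *HUG1* and *RNR3* stand near the top, the cell-separation genes *DSE2* and *PIR1* near the bottom. The points at the left edge are short loci listed at 0 in both untreated libraries.

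The genes of dNTP supply and of the damage response held the largest rise of any member, that of *HUG1*. Of the 24 members of this list, 20 were called higher and none lower, with a median change of 1.15 against 0.16 for all tested genes. After centring the counts of this list were 18 and 1. In this and the other lists, a count of none is followed where it is not also 0 by the count at an unadjusted p under 0.05. Counts of each list stand against 31.1% higher and 11.9% lower of all tested genes, or 18.3% and 20.5% after centring. *HUG1* (chromosome XIII from 158760 to 158966), which encodes a small inhibitor of ribonucleotide reductase, had 47.02 and 56.4 FPKM without HU and 10604 and 9077 FPKM at 2 h. The groups are far apart, with a ratio of means of 190.3 to 1. The change was 7.55 ± 0.15 and the limma adjusted p was 4.6e-10.

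The reductase genes rose unequally. *RNR3* (chromosome IX from 238099 to 240708), the damage-inducible copy of the large subunit, went from 2.61 and 3.05 FPKM to 149.96 and 142 FPKM, a change of 5.26 ± 0.18 (limma adjusted p = 5e-08). The small-subunit genes *RNR2* (chromosome X from 392404 to 393603) and *RNR4* (chromosome VII from 855264 to 856301) began far higher. *RNR2* had 254 and 246 FPKM without HU and 3555 and 3585 FPKM at 2 h, and *RNR4* had 401 and 389 FPKM and then 4283 and 4312 FPKM. Their changes were 3.83 ± 0.06 and 3.44 ± 0.06, with limma adjusted p = 1.6e-10 and 4.5e-10. The main large-subunit gene *RNR1* (chromosome V from 298950 to 301616) rose least, from 148 and 179.7 FPKM to 456 and 533 FPKM, a change of 1.59 ± 0.16 (limma adjusted p = 3.5e-05). Per unit of length, *RNR3* thus stayed below *RNR1* at 2 h although its relative rise was larger. *RNR2* overlaps YJL026C-A over 18.5% of its length, and libraries without strand cannot assign the shared reads. The short YJL026C-A rose with it, from 1318 and 1281 FPKM to 17456 and 17757 FPKM.

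**Figure D2:**
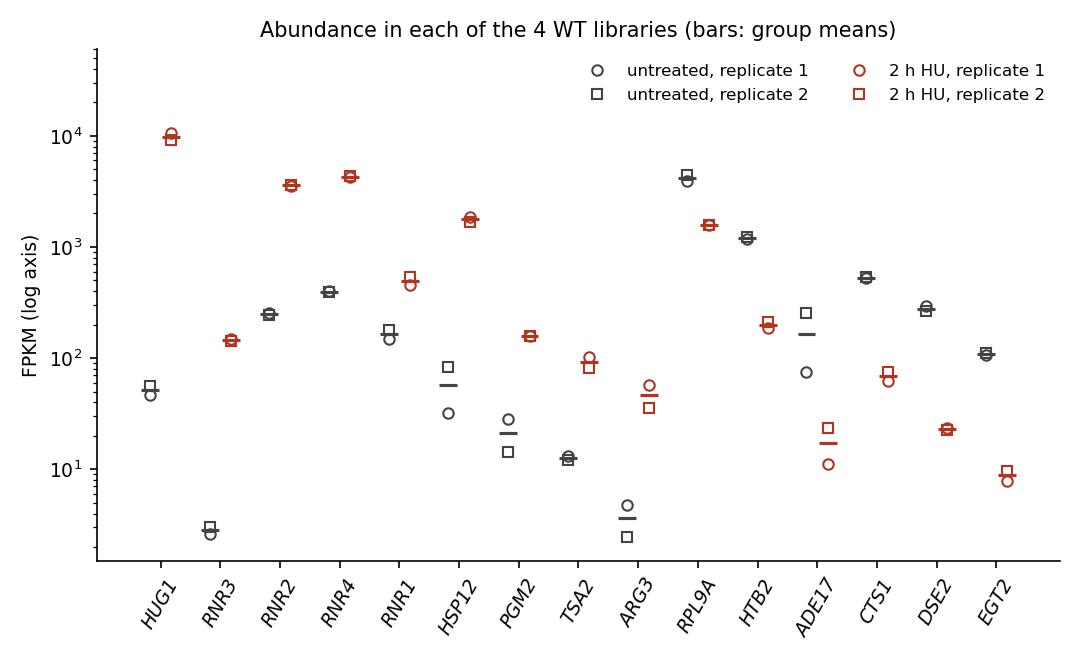
FPKM (log axis) of 15 named genes in each of the 4 WT libraries. Grey symbols are untreated and red symbols 2 h of HU, circles are replicate 1 and squares replicate 2, and bars are group means. The groups do not overlap in any of the 15, and *HSP12*, *PGM2*, *ARG3* and *ADE17* show wide gaps between replicates.

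The promoters of *RNR2* and *RNR3* hold the core of the X-box, the site that Rfx1 binds, and are shown for that reason. Among 5324 members with a 500-base window upstream of the start codon, the core CCATGGCAA, searched on both strands, was found in only 0.319% of windows. The windows of *RNR1*, *RNR4* and *HUG1* held no match to these letters. The *RNR1* window held 4 copies and that of *RNR3* 1 copy of ACGCGT, the MCB element bound by the G1/S factor MBF, which occurred in 5.62% of windows. The stretches below come from the R64 genome of RefSeq, read 5′ to 3′ on the strand of the gene, with each match to the X-box core in *RNR2* and *RNR3*, and to the MCB in *RNR1*, in capitals. They lie at chrX:391937-392005, plus strand for *RNR2*, chrIX:240940-241008, minus strand for *RNR3* and chrV:298450-298664, plus strand for *RNR1*.
RNR2: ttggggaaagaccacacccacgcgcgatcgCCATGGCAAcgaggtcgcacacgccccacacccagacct
RNR3: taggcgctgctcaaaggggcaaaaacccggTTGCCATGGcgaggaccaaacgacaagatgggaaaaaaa
RNR1: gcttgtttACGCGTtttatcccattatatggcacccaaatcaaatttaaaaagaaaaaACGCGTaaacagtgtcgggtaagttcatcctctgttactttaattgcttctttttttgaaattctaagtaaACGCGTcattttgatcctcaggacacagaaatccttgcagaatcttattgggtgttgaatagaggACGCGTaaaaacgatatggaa

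Other genes of the list were also called higher. *PLM2*, a forkhead-associated transcription factor of the damage response, rose from 6.32 and 7.31 FPKM to 72.4 and 70.6 FPKM, by 3.22 ± 0.09 (limma adjusted p = 8.2e-09). *RAD54*, which encodes a DNA translocase of recombinational repair, rose from a mean of 11.8 to 31.8 FPKM. The kinase genes *DUN1* and *RAD53* rose by 1.90 and 1.40, and the *RFX1* gene itself by 1.20. *DIN7*, a mitochondrial nuclease, and *MAG1*, a DNA glycosylase, rose by 1.84 and 1.10. *WTM1* and *WTM2*, which encode nuclear anchors of the small subunit, rose by 0.71 and 0.49. The 4 members not called were *PHR1*, *RAD9*, *DIF1* and *SML1*. *SML1* encodes the inhibitor that checkpoint signalling removes as a protein, and its mean was 684 FPKM without HU and 576 FPKM at 2 h, which was called lower only after centring.

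Genes of the G1/S transition moved in both directions. Among the 28 G1 cyclin and SBF/MBF genes, 16 were called higher and 6 lower, and after centring 15 and 9. The risers included the histone chaperone gene *ASF1*, from 16.9 and 13.2 FPKM to 40.8 and 34.5 FPKM, and the cohesin gene *MCD1*, from 24.2 and 28.2 FPKM to 60.1 and 60.1 FPKM. Both groups of libraries were separate, and the changes were 1.27 ± 0.14 and 1.17 ± 0.13 (limma adjusted p = 5.6e-05 and 6.2e-05). The mismatch-repair gene *MSH6* rose by 1.01, the S-phase cyclin genes *CLB6* and *CLB5* by 1.00 and 0.59, the thymidylate synthase gene *CDC21* by 0.96, and *NRM1*, a co-repressor of MBF, by 0.84. The fallers were *CLN2*, *PCL1*, *SVS1*, *CSI2*, *CLN1* and *MNN1*. *CLN2*, a G1 cyclin gene, had 55.4 and 61.4 FPKM without HU and 25.6 and 27.1 FPKM at 2 h, a change of -1.12 ± 0.07 (limma adjusted p = 2.4e-06). *PCL1*, the gene of a Pho85 cyclin, fell by 0.87 and *SVS1*, which encodes a cell wall protein, by 0.86. Of genes that SBF is known to drive, *CLN1*, *CLN2* and *PCL1* fell and *PCL2* was not called (0.35). *CLB5* and *CLB6*, which MBF is known to drive, rose. The rest of the list was not assigned to either factor, so these few genes do not show how the targets of each moved.

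Among the 35 genes of the replication fork, 23 were called higher and none lower, with a median change of 0.54, and each of the 35 changes was above 0. After centring the counts were 19 and 1, and 23 of the 35 changes were above 0. The topoisomerase gene *TOP2* had 43.3 and 42.5 FPKM without HU and 101 and 101 FPKM at 2 h. The single-strand binding protein gene *RFA2* had 60.5 and 64.8 FPKM and then 139.6 and 125 FPKM, and *SLD2*, an initiation factor gene, 10.8 and 11.9 FPKM and then 25.9 and 25.4 FPKM. In each of them both 2 h libraries lay well above both untreated ones, and the changes were 1.22 ± 0.06, 1.07 ± 0.09 and 1.11 ± 0.09 (limma adjusted p = 3.8e-07, 9.1e-06 and 1.1e-05). The polymerase α genes *POL1* and *POL12* rose by 0.89 and 0.72, and the catalytic subunit genes *POL3* and *POL2* of polymerases δ and ε by 0.56 and 0.53. The clamp was different, as *POL30*, the gene of PCNA, had a mean of 34.8 FPKM without HU and 35.8 FPKM at 2 h. Of the clamp loader genes *RFC1* to *RFC5*, *RFC4* was called higher with a change of 0.27, which was lost on centring, and *RFC2* was called lower only on centring.

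ACGCGT was found in the windows of 21 of 35 fork genes, against 5.62% of all windows. Many of these genes are known MBF targets, so the list and the motif are not independent. *POL1* serves as an example, with 2 copies within chrXIV:429859-429939, plus strand.
POL1: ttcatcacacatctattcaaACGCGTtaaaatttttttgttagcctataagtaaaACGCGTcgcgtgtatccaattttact

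The helicase and licensing genes changed less. Of 17 members, 4 were called higher and none lower (1 at an unadjusted p under 0.05), and after centring 3 and 3. *CDC6*, the gene of the MCM loader, rose from 19.9 and 20.5 FPKM to 35.8 and 35.7 FPKM, by 0.79 ± 0.15 (limma adjusted p = 0.0018). It shares 39.2% of its length with YJL195C. *CDC7*, the kinase gene that fires origins, rose by 0.71 and *ORC5* by 0.50. The helicase genes *MCM2*, *MCM4*, *MCM6* and *MCM7* were not called, with changes of 0.12, 0.13, 0.02 and 0.09.

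The histone genes fell. Of 11 members, 9 were called lower and 1 higher, on the deposited scale and after centring alike, with a median change of -1.29. *HTB2*, a histone H2B gene, had 1184 and 1233 FPKM without HU and 186 and 211 FPKM at 2 h, and its divergent neighbour *HTA2*, a histone H2A gene, had 1055 and 1047 FPKM and then 185 and 193 FPKM. The groups did not overlap in either gene, and the changes were -2.60 ± 0.12 and -2.47 ± 0.14 (limma adjusted p = 2.7e-07 and 1.3e-06). *HTA1* fell by 1.93, but its neighbour *HTB1* only by 1.29. The H3 and H4 genes *HHT1*, *HHT2*, *HHF1* and *HHF2* fell by 1.16, 1.11, 1.38 and 1.49. *HTZ1*, the H2A.Z variant gene, fell by 0.93, whereas the centromeric histone gene *CSE4* rose from 32.5 and 32.2 FPKM to 49.3 and 49.03 FPKM. The linker histone gene *HHO1* was not called, at a mean of 96.3 FPKM without HU and 106 FPKM at 2 h. Copies of one histone are nearly identical, and how the reads were split between them is not given in the sources used here.

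The lowest median of the 32 lists was that of the mother-daughter separation genes, which are switched on as cells leave mitosis, many of them by the factor Swi5. All 18 members were called lower, on the deposited scale and after centring, with a median change of -2.08 and a range from -3.54 to -0.69. *DSE2* (chromosome VIII from 385510 to 386487), a daughter-specific secreted protein gene, had 292 and 264 FPKM without HU and 23.3 and 22.5 FPKM at 2 h. *EGT2* had 106 and 110.5 FPKM and then 7.92 and 9.73 FPKM, and *DSE1* had 129.7 and 147 FPKM and then 10.5 and 13.04 FPKM. In each of these 3 genes the 2 h libraries lay far below the untreated ones, and the replicates differed little. The changes were -3.54 ± 0.07, -3.48 ± 0.16 and -3.45 ± 0.14, with limma adjusted p = 4.6e-10, 3.8e-07 and 1.7e-07. In bulk samples fewer cells in the stage that makes a transcript and less transcript per cell cannot be told apart.

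The enzymes that cut the septum were among them. *CTS1*, the chitinase gene, fell from 525 and 537 FPKM to 62.6 and 74.2 FPKM, and the glucanase genes *SCW11* and *DSE4* from 93.5 and 102 FPKM to 10.4 and 12.5 FPKM and from 58.04 and 58.9 FPKM to 5.96 and 9.05 FPKM. The changes of *CTS1*, *SCW11*, *DSE4* and *DSE3*, another daughter-specific gene, were -2.94, -2.99, -2.83 and -2.09, and the groups did not overlap in any of them. *DSE3* shares 23.1% of its length with YOR263C. *PIR1*, the gene of a wall protein of the bud scar, fell from 449.8 and 480.2 FPKM to 33.8 and 47.2 FPKM (change -3.51 ± 0.14, limma adjusted p = 1.7e-07). *ASH1*, the daughter-cell repressor of mating-type switching, fell from 38.3 and 37.9 FPKM to 6.84 and 8.47 FPKM. *HO*, the switching endonuclease gene, which is not on the list, fell as well, from 37.3 and 46.7 FPKM to 7.45 and 6.52 FPKM. *SIC1*, which encodes the inhibitor of the B-type cyclin kinase, and *CHS1*, a chitin synthase gene, fell less, by 0.94 and 0.69.

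The Swi5 site ACCAGC was present in 10 of 18 windows of this list, against 13.2% of all windows. It was present in 19% of those of the 100 largest falls and 7% of those of the 100 largest rises. The 100 largest falls reached up to -0.98, so they include the 14 list members that fell at least 2-fold. Many of the list are known Swi5 targets, so the list, the motif and the share among the falls are not independent. The windows of *CTS1*, *SCW11* and *DSE4* held no match to these letters. The stretches shown hold every copy in the windows of 3 of the genes that fell most, at chrV:409296-409524, minus strand for *DSE1*, chrVIII:385074-385268, plus strand for *DSE2* and chrXIV:23648-23871, plus strand for *EGT2*. GCTGGT is the same site on the other strand. In *DSE1* the middle site directly follows gtaaacaa, a match to the forkhead element.
DSE1: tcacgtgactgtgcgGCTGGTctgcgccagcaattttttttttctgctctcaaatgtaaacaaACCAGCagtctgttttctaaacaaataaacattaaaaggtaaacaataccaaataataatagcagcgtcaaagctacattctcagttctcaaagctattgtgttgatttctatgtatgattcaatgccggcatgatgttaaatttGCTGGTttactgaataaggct
DSE2: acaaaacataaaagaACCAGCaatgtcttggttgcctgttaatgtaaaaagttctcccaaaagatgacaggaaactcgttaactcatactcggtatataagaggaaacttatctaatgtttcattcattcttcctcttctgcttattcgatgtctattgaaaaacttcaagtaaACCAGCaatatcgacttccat
EGT2: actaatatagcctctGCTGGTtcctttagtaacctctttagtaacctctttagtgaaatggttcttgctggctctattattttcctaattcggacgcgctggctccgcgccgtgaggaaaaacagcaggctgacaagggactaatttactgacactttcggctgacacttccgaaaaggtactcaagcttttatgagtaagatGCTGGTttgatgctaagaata

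Genes of the *CLB2* cluster, which peak in mitosis under Mcm1 and the forkhead factors, were by contrast mostly not called. Of 21 members, 3 were called higher and 3 lower, and after centring 2 and 6. The count lower was 1 without the second untreated library and 1 without the first 2 h library. *SPO12*, a mitotic exit gene, rose from 48.6 and 37.6 FPKM to 88.9 and 80.6 FPKM and the cyclin gene *CLB1* from 33.7 and 36.2 FPKM to 54.6 and 59.5 FPKM. *HOF1*, which acts in cytokinesis, fell from 15.1 and 15.4 FPKM to 5.58 and 7.05 FPKM, a change of -1.16 ± 0.18 (limma adjusted p = 0.00061). *CLB2* itself was not called, at a mean of 36.8 FPKM without HU and 42.4 FPKM at 2 h. Nor was *SWI5*, with a change of -0.09, although the separation genes fell.

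The genes of the ribosome fell almost without exception. Of the 138 members matched as cytosolic ribosomal proteins, 136 were called lower and none higher, also after centring, against 11.9% of all tested genes called lower. The median change was -0.94, and the called falls spanned a narrow range, from -1.39 to -0.43. The 2 others are *RPL43A*, with 8.70 and 3.80 FPKM without HU and 7.52 and 6.20 FPKM at 2 h, and *RPP1*, an RNase P subunit gene that the name pattern took in. *RPL9A* had 3957 and 4398 FPKM without HU and 1590 and 1590 FPKM at 2 h, *RPS22A* had 5684 and 6324 FPKM and then 2370 and 2282 FPKM, and *RPS21A* 4859 and 5181 FPKM and then 2189 and 2092 FPKM. These were the largest falls, of -1.39 ± 0.10, -1.37 ± 0.09 and -1.23 ± 0.10 (limma adjusted p = 4.8e-06, 2.9e-06 and 1.3e-05). Their paralogues fell less, *RPL9B* by 0.43 and *RPS22B* by 0.44. The division of reads between paralogues is uncertain. The most abundant, *RPL41A*, with a mean of 134770 FPKM without HU, fell by 0.58. Without each library in turn the count lower was 133 to 136.

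The factors that build the ribosome fell less, and how many were called depended on the libraries. Of the 103 ribosome biogenesis genes, 34 were called lower and none higher, with a median change of -0.36, and 65 were called lower after centring. The count was 14 without the first untreated library, 20 without the second, and 13 without the second 2 h library. *UTP20*, a subunit gene of the processome that matures the small subunit, had 94.4 and 88.6 FPKM without HU and 46.9 and 46.8 FPKM at 2 h. *GAR1* and *NHP2*, genes of the H/ACA particle that modifies rRNA, went from 308 and 266 FPKM to 153 and 151 FPKM and from 584 and 553 FPKM to 325 and 308 FPKM. The changes were -0.95 ± 0.14, -0.91 ± 0.15 and -0.84 ± 0.09 (limma adjusted p = 0.00043, 0.00074 and 7.4e-05). Of 26 genes of RNA polymerases I and III, 8 were called lower, or 12 after centring. The 8 were *RPA190*, *RPA135*, *RPA49*, *RPA34*, *RPA12* and *RPA43* of polymerase I, *RPC40* of both enzymes and *RPC17* of polymerase III. The count was 2, 3, 4 and 2 without the first or second untreated and the first or second 2 h library. The PAC and RRPE elements, GCGATGAG and AAAATTTT, were found in 55 of 102 and 82 of 102 windows of ribosome biogenesis genes, against 5.18% and 13.3% of all windows.

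**Figure D3:**
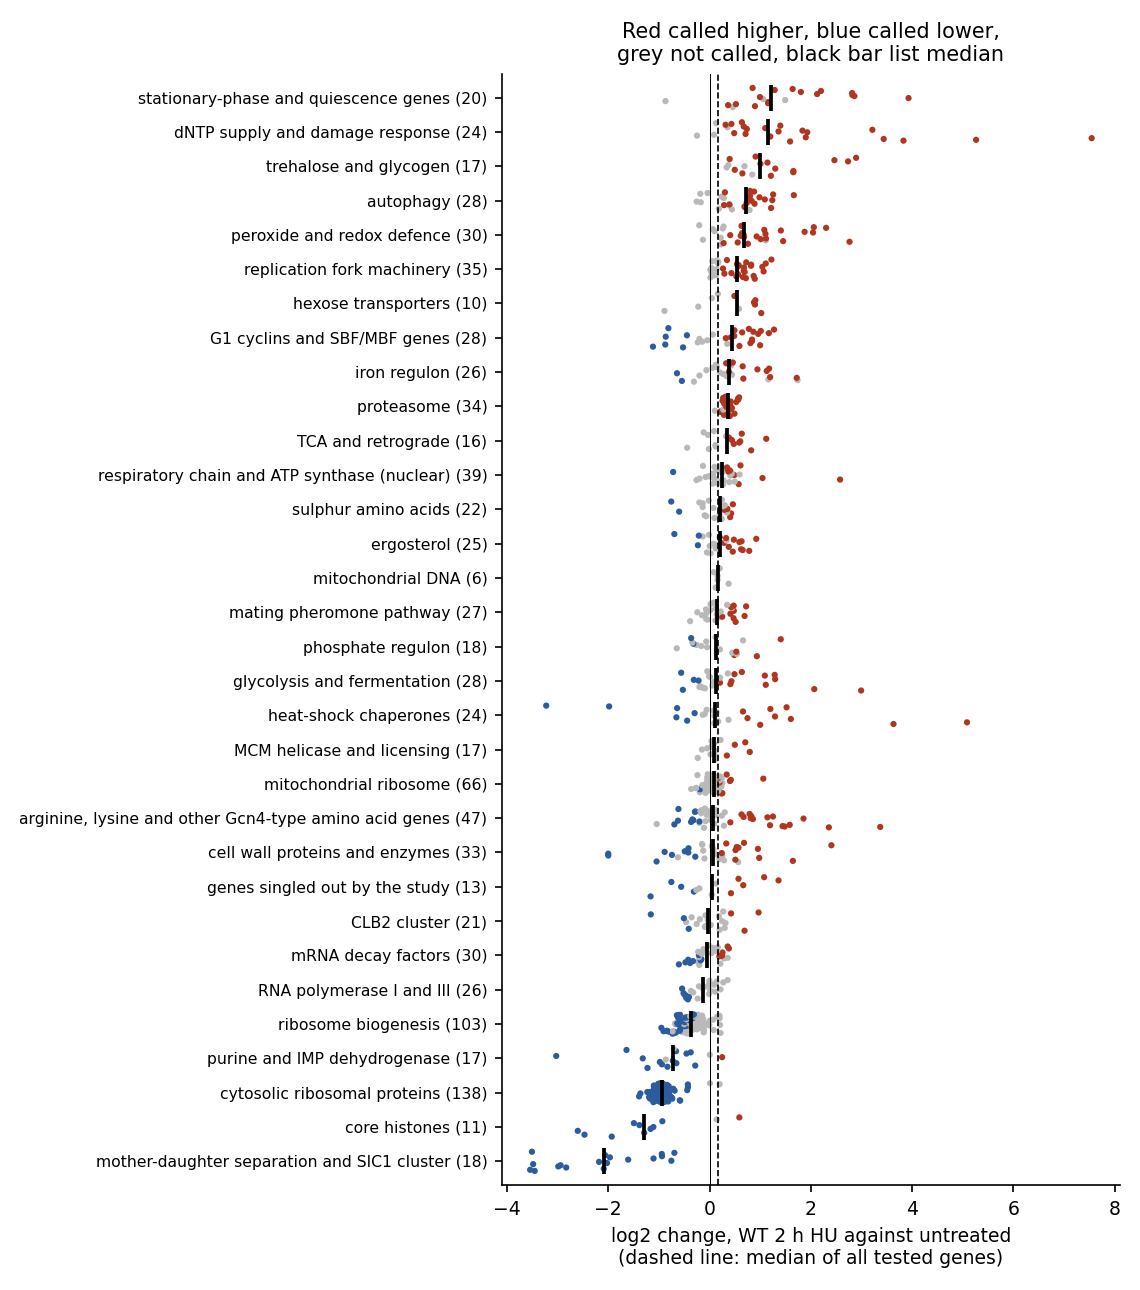
Change after 2 h of HU (log2, horizontal axis) of every tested member of 32 gene lists, ordered by their median (black bar), with the number of members in parentheses. Red points were called higher, blue points lower and grey points not called, and the dashed line is the median of all tested genes at 0.16. The medians run from -2.08 for mother-daughter separation to 1.22 for stationary-phase genes.

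Genes of protein breakdown rose. Of 34 proteasome genes, 32 were called higher and none lower, but the changes were small, between 0.11 and 0.58 with a median of 0.36, and after centring 16 were called. The chaperone gene *UMP1* had 143 and 141 FPKM without HU and 229 and 199 FPKM at 2 h, and the core subunit genes *PUP1* and *PUP3* 178 and 173 FPKM and 210.4 and 203 FPKM without HU and 273 and 248 FPKM and 331 and 282 FPKM at 2 h. All 3 changes lay between 0.56 and 0.58. The gene of their regulator Rpn4, *RPN4*, rose by 0.31, which was lost on centring. The polyubiquitin gene *UBI4* rose far more, from 99.7 and 67.4 FPKM to 660.5 and 548 FPKM, by 2.86 ± 0.19 (limma adjusted p = 4e-06). The Rpn4 element PACE, GGTGGCAAA, was found in 27 of 34 proteasome windows and in 1.71% of all windows. That of *PUP3* lies within chrV:349491-349559, minus strand.
PUP3: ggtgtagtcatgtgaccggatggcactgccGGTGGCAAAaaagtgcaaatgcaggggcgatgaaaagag

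Of 28 autophagy genes, 18 were called higher and none lower (1 at an unadjusted p under 0.05), with a median of 0.72, and after centring 15 and 1. *ATG34* and *ATG19*, genes of receptors for cargo of the vacuole, rose from 4.09 and 4.25 FPKM to 15.2 and 15.6 FPKM and from 27.6 and 25.1 FPKM to 65.3 and 63.02 FPKM. *ATG33*, which acts in the removal of mitochondria, rose from 19.2 and 16.6 FPKM to 43.7 and 43.4 FPKM. The limma adjusted p was 0.00011, 0.00012 and 4.4e-06. *ATG1*, the gene of the initiating kinase, and *ATG13*, that of its regulatory subunit, rose by 0.89 and 0.80. *ATG8*, whose protein coats the membrane, was not called, at a mean of 36.6 FPKM without HU and 64.2 FPKM at 2 h.

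Heat-shock genes moved in both directions. Of 24 heat-shock chaperone genes, 9 were called higher and 6 lower, in the same numbers after centring. Among all tested genes 31.1% were called higher and 11.9% lower, or 18.3% and 20.5% after centring. *HSP12*, which encodes a small membrane-protecting protein, had 32.1 and 82.3 FPKM without HU and 1875 and 1691 FPKM at 2 h. The untreated libraries differed more than 2-fold, yet both lay far below the 2 h libraries, and the change was 5.08 ± 0.51 (limma adjusted p = 3.3e-05). It was 4.42 to 5.75 with each library left out in turn. *HSP26*, a small chaperone gene, rose from 17.8 and 12.4 FPKM to 225 and 170.3 FPKM. *SSA4*, *HSP78* and *HSP104*, genes of a stress-induced Hsp70 and of disaggregases, rose by 1.61, 1.29 and 1.00. The opposite was seen in *HSP30*, a membrane protein gene, with 137 and 47.4 FPKM without HU and 9.03 and 6.61 FPKM at 2 h, and in *BTN2*, an aggregate-sorting gene, with 91.2 and 40.7 FPKM and then 14.3 and 15.04 FPKM. Here too the untreated replicates lay far apart, the first being the higher in both genes. The change of *HSP30*, -3.23 ± 0.49 (limma adjusted p = 0.00052), was -3.98 to -2.47 with each library left out in turn. The constitutive chaperone genes *SSA2* and *HSC82* fell by 0.44 and 0.65, while *HSP82*, the inducible partner of *HSC82*, rose by 0.75.

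Stored carbohydrate genes rose together. Of 17 trehalose and glycogen genes, 13 were called higher and none lower, also after centring, and each of the 17 changes was above 0, with a median of 1.01. *PGM2*, the phosphoglucomutase gene, had 28.4 and 14.4 FPKM without HU and 158 and 156 FPKM at 2 h. The genes that break glycogen down, *GPH1* and *GDB1*, had 16.6 and 8.13 FPKM and 6.62 and 5.43 FPKM without HU and 84.4 and 82.7 FPKM and 37.8 and 37.6 FPKM at 2 h. The changes were 2.89 ± 0.25, 2.73 ± 0.24 and 2.47 ± 0.14 (limma adjusted p = 1.4e-05, 1.5e-05 and 1.3e-06). Genes of synthesis rose as well, *TPS1* and *TSL1* of trehalose synthase by 1.21 and 1.65 and *GLC3* and *GLG2* of glycogen by 1.14 and 1.01, and so did the trehalase gene *NTH1*, by 1.66.

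Of 30 genes of peroxide and redox defence, 21 were called higher and none lower, with a median of 0.68, and after centring 20 and 2. The peroxiredoxin genes *TSA2* and *PRX1*, the latter of mitochondria, had 13.1 and 12.2 FPKM and 58.9 and 62.9 FPKM without HU and 102 and 82.2 FPKM and 284 and 232 FPKM at 2 h. *SRX1*, which encodes the sulfiredoxin that repairs them, rose from 7.05 and 11.1 FPKM to 49.6 and 45.97 FPKM. Their changes were 2.77 ± 0.17, 2.06 ± 0.16 and 2.30 ± 0.20 (limma adjusted p = 2.4e-06, 7e-06 and 1.2e-05). The abundant peroxiredoxin gene *AHP1* went from a mean of 4720 FPKM to 12937 FPKM. Both superoxide dismutase genes rose, *SOD1* by 1.01 and *SOD2* by 1.11, and the glutathione transferase genes *GTT1*, *GTT2* and *ECM4* by 2.04, 1.88 and 3.01. *ECM4* was among the 15 largest rises, from 8.61 and 8.66 FPKM to 79.8 and 73.97 FPKM. *CTT1*, the cytosolic catalase gene, was not called, at a mean of 7.90 FPKM without HU and 17.8 FPKM at 2 h.

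Of 20 genes known from stationary phase and quiescence, 16 were called higher and none lower, or 14 after centring, with a median of 1.22. *DDR2*, a stress gene of unknown role, rose from 58.9 and 35.8 FPKM to 698 and 731 FPKM and *GAD1*, the glutamate decarboxylase gene, from 29.1 and 16.98 FPKM to 166 and 162 FPKM. Also among the largest rises were *RTC3*, with 90.5 and 32.5 FPKM without HU and 467 and 414 FPKM at 2 h, and *GPM2*, a phosphoglycerate mutase homologue, with 5.78 and 4.53 FPKM and then 51.1 and 42.1 FPKM. The change of *RTC3* was 2.27 to 3.72 with each library left out in turn.

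The stress element STRE, AGGGG, which the factors Msn2 and Msn4 bind, was found in 70% of the windows of the 100 largest rises, in 29% of those of the 100 largest falls and in 34.1% of all windows. Of the other 13 motifs, none differed as widely between the rises and all windows in percentage points. The Gcn4 element was found in 10% of the rises, the MCB in 10% and PACE in 5%, against 4.17%, 5.62% and 1.71% of all windows. Divergent genes share windows, so the windows are not independent, and a match is a run of letters and not a site shown to be bound. The windows of *HSP12* and *PGM2* each held 5 copies, at chrVI:106806-107085, plus strand and chrXIII:477803-478027, minus strand. CCCCT is AGGGG on the other strand.
HSP12: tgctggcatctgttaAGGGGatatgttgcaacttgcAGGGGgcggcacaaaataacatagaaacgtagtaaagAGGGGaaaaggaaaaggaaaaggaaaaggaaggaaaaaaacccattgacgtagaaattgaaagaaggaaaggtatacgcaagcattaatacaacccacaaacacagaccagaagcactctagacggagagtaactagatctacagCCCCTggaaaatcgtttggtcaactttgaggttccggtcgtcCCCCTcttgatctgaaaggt
PGM2: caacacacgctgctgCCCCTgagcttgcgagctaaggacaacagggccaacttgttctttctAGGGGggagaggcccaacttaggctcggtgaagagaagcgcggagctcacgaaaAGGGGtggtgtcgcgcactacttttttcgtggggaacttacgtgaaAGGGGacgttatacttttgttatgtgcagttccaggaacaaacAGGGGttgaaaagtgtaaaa

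**Figure D4:**
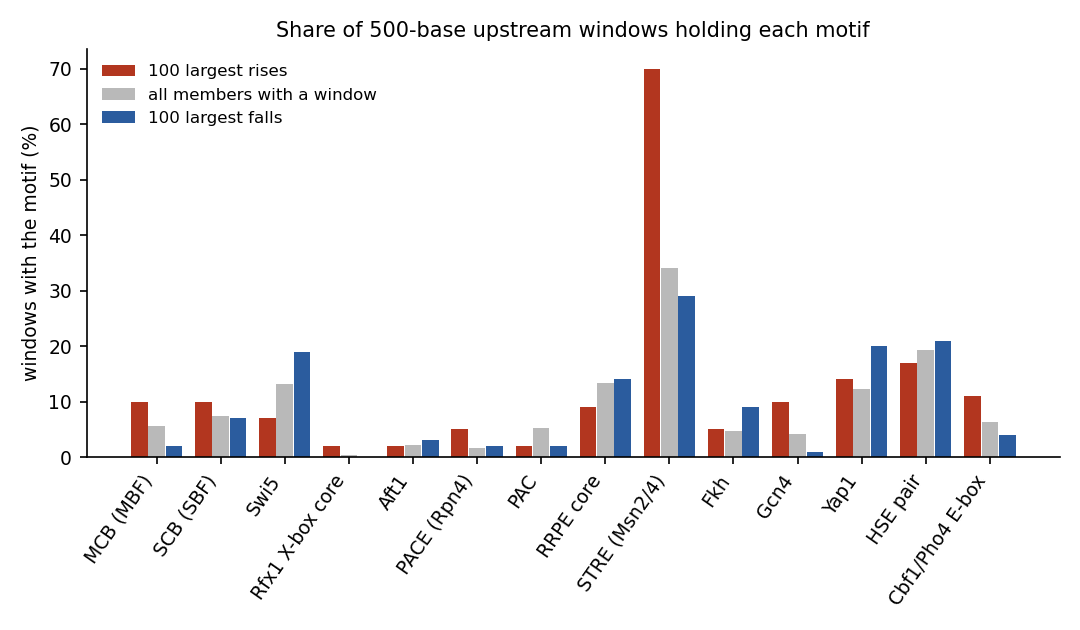
Share of 500-base upstream windows (percent, vertical axis from 0) that hold each of 14 motifs on either strand, for the 100 largest called rises (red), the 100 largest called falls (blue) and all 5324 members with a window (grey). STRE stands out among the rises, at 70% against 34.1% of all windows.

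In metabolism the purine pathway fell. Of 17 genes of purine synthesis and IMP dehydrogenase, 13 were called lower and 1 higher, or 14 and none after centring, with a median of -0.73. *ADE17*, the gene of the enzyme that makes IMP, had 75.1 and 255 FPKM without HU and 11.1 and 23.3 FPKM at 2 h. In both groups replicate 2 was at least 2 times replicate 1, but the groups did not overlap, and the change was -3.03 ± 0.66 (limma adjusted p = 0.0043), or -3.90 to -2.15 with each library left out in turn. *SHM2*, which supplies one-carbon units, had 258 and 457 FPKM and then 105 and 115 FPKM, and *ADE13* had 218 and 358 FPKM and then 103 and 121 FPKM. *ADE16*, the isozyme gene of *ADE17*, was the one called higher, from 109 and 103 FPKM to 129.5 and 123 FPKM, and that call was lost on centring and without the second untreated library.

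The list of arginine, lysine and other amino acid genes of the Gcn4 type had 47 members, *GCN4* among them. Of these, 16 were called higher and 9 lower, or 15 and 16 after centring, against 31.1% and 11.9%, or 18.3% and 20.5%, of all tested genes. *ARG3* and *ARG1* of arginine synthesis had 4.77 and 2.47 FPKM and 29.96 and 24.2 FPKM without HU and 57.7 and 35.5 FPKM and 208 and 97.1 FPKM at 2 h. The 2 h replicates differed, the first being the higher in both, but lay above all untreated values, with changes of 3.37 ± 0.35 and 2.36 ± 0.43 (limma adjusted p = 4.6e-05 and 0.0017). *ARG4*, *ARG5,6* and *CPA1* rose by 1.48, 1.44 and 1.19. Of the lysine genes, *LYS1* rose from 26.2 and 25.6 FPKM to 111 and 83.7 FPKM and *LYS20*, *LYS9*, *LYS21*, *LYS2* and *LYS12* by 0.67 to 1.25, but *LYS4* was not called (0.04). Among the fallers were *HIS1*, from 293 and 386 FPKM to 207 and 208 FPKM, and the branched-chain gene *ILV3*, from 416 and 432 FPKM to 274 and 275 FPKM. *GCN4* itself was not called, at a mean of 888 FPKM without HU and 822 FPKM at 2 h. The Gcn4 element TGACTCA was found in 29 of 47 windows of the list, and in both the riser *ARG1* and the faller *HIS1*, at chrXV:218836-218902, plus strand and chrV:265933-265999, minus strand. TGAGTCA is the same element on the other strand.
ARG1: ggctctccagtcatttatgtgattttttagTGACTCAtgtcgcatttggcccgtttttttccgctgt
HIS1: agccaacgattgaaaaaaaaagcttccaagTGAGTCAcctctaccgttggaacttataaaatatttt

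Of 28 genes of glycolysis and fermentation, 12 were called higher and 4 lower, but 8 and 9 after centring, and the median turned from 0.13 to -0.05. The count lower was 2 without either untreated library or without the first 2 h library. Isoform genes of the entry enzymes moved in opposite directions. *HXK1* and *GLK1*, hexokinase and glucokinase genes, had 60.9 and 46.4 FPKM and 195 and 130.2 FPKM without HU and 455 and 407 FPKM and 682 and 659.6 FPKM at 2 h, while *HXK2*, the hexokinase gene of growth on glucose, had 1494 and 1457 FPKM and then 1086 and 965 FPKM. The changes were 2.99 ± 0.19, 2.07 ± 0.22 and -0.53 ± 0.10 (limma adjusted p = 2.8e-06, 4.5e-05 and 0.0016). Per unit of length *HXK2* remained the most abundant of the 3 genes at 2 h. Of the pyruvate kinase genes, *PYK2* rose from 20.8 and 17.5 FPKM to 51.3 and 45.4 FPKM, and *CDC19*, 64.1% of which overlaps YAL037C-B, fell by 0.31. The abundant genes *TDH3*, *ADH1*, *TPI1* and *GPM1* were not called, with changes of 0.10, 0.01, 0.05 and 0.08. Of 10 hexose transporter genes and sensors 5 were called higher and none lower, with *HXT1* from 159.8 and 149.8 FPKM to 327 and 304 FPKM. *HXT6* and *HXT7*, whose sequences are nearly identical, rose by 0.88 and 0.91.

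The mitochondrial lists differed, and stand against 31.1% higher and 11.9% lower of all tested genes, or 18.3% and 20.5% after centring. Of 16 genes of the TCA cycle and retrograde response, 8 were called higher and none lower, or 8 and 1 after centring. *LSC2*, a succinyl-CoA ligase gene, rose from 67.6 and 83.8 FPKM to 164 and 165 FPKM and the citrate synthase gene *CIT1* from 117 and 108 FPKM to 202 and 197 FPKM. Of 39 nuclear genes of the respiratory chain and ATP synthase, 9 were called higher and 1 lower, or 3 and 1 after centring. The count higher was 5 without the first untreated library, 2 without the second and 3 without the first 2 h library. The isoform genes *CYC7* and *COX5B* rose, *CYC7* from 10.2 and 4.999 FPKM to 45.1 and 50.8 FPKM, while their partners *CYC1* and *COX5A* were not called (-0.26 and -0.20). None of the 6 genes of mitochondrial DNA was called by limma (1 at an unadjusted p under 0.05), with changes of 0.08 to 0.38. Of 66 mitochondrial ribosome genes, 8 were called higher and 1 lower, but 1 and 14 after centring, so their direction depends on the scale. The count higher was 4 without the first untreated and 2 without the first 2 h library, and the count lower 0 to 2 without each library in turn.

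The iron regulon, of interest because HU is known to act on the iron centre of the reductase, gave no uniform picture. Of 26 members, 11 were called higher and 2 lower, but 4 and 4 after centring. The count higher was 6 without the first untreated library, 5 without the second and 5 without the first 2 h library, and the count lower was 1 without the first untreated or the second 2 h library. The siderophore transporter gene *SIT1* rose from 70.6 and 65.3 FPKM to 166 and 149 FPKM and *SMF3*, a vacuolar metal transporter gene, from 51.3 and 54.6 FPKM to 122 and 119 FPKM, with changes of 1.20 ± 0.22 and 1.18 ± 0.19 (limma adjusted p = 0.0015 and 0.00083). *FTR1*, the high-affinity permease gene, fell from 158 and 168 FPKM to 111 and 111 FPKM, and its partner *FET3* was called lower only after centring. *FIT2*, a wall mannoprotein gene, was not called although its mean went from 147 to 496 FPKM.

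The remaining metabolic lists were divided, beside 31.1% higher and 11.9% lower of all tested genes, or 18.3% and 20.5% after centring. Of 25 ergosterol genes, 12 were called higher and 3 lower, or 7 and 6 after centring, with *ERG4* from 194 and 190.3 FPKM to 316 and 347 FPKM. The count lower was 0 without the first untreated library, and 1 without either 2 h library. Of 22 sulphur amino acid genes, 5 were called higher and 2 lower, or 2 and 3 after centring, and without any one of the 4 libraries 2 or 3 were called higher, and 1 lower without either untreated library or the first 2 h library. Of 18 phosphate genes, 4 were called higher and 2 lower, or 1 and 3 after centring, with 2 called higher without the first untreated library and 1 lower without any other library. *PHM8*, a nucleotide phosphatase gene, rose from 30.5 and 17.6 FPKM to 59.7 and 66.98 FPKM.

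For the wall and mating lists, the shares of all tested genes were 31.1% and 11.9%, or 18.3% and 20.5% after centring. At the cell surface, of 33 wall genes, 11 were called higher and 9 lower, or 6 and 9 after centring. The count higher was 6 without the second untreated library and 5 without the second 2 h library. *GSC2*, the stress-induced glucan synthase gene, rose from 17.9 and 15.2 FPKM to 91.7 and 91.4 FPKM, by 2.41 ± 0.12 (limma adjusted p = 7.9e-07), while its partner *FKS1* was not called, at a mean of 315 FPKM without HU and 329 FPKM at 2 h. The wall protein genes *PST1* and *PIR3* fell from 90.7 and 70.9 FPKM to 16.9 and 22.02 FPKM and from 21.5 and 21.4 FPKM to 5.38 and 3.95 FPKM, and the abundant *CWP2* from 10112 and 11720 FPKM to 4648 and 5982 FPKM. Of 27 genes of the mating pheromone pathway, 9 were called higher and none lower (1 at an unadjusted p under 0.05), but 2 and 3 after centring, and 2 were called higher without the first 2 h library. *KAR4*, a pheromone-pathway transcription factor gene, was called on either scale, from 28.7 and 29.3 FPKM to 50.2 and 46.7 FPKM.

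The series was made to study mRNA decay by P-body proteins, so its factors were counted too. Of 30 mRNA decay genes, 6 were called higher and 8 lower, against 31.1% and 11.9% of all tested genes. After centring 1 was called higher and 15 lower, against 18.3% and 20.5%. The count lower was 5 without the first untreated library, 2 without the second and 2 without the second 2 h library, and the count higher was 3, 2 and 2 without the first or second untreated or the first 2 h library. *LSM1* was not called, with a change of -0.20 ± 0.20 (limma adjusted p = 0.45), whereas *LSM2*, whose protein is shared with the nuclear ring, fell from 340.02 and 405 FPKM to 264 and 225 FPKM. *YOX1*, a repressor gene that the study follows, had 17.1 and 17.2 FPKM without HU and 13.6 and 16.1 FPKM at 2 h. Its change of -0.20 ± 0.13 was not called (limma adjusted p = 0.24), but was after centring, at -0.39 (limma adjusted p = 0.047). The study singled out genes partly by their levels in *lsm1∆* against WT in this series, so their counts are no independent evidence. It also used genetic screens in HU and a separate experiment that overexpressed *YOX1*. Of 13 such genes, 5 were called higher and 4 lower. The count lower was 2 without either untreated library or without the second 2 h library. *RTC1*, a further gene of the study's set that was left off the list, had 11.03 and 11.2 FPKM without HU and 16.5 and 15.2 FPKM at 2 h (limma adjusted p = 0.0055). *ICS2* rose from 36.4 and 31.5 FPKM to 56.9 and 51.8 FPKM and *YML131W* from 36.99 and 30.99 FPKM to 83.9 and 62.9 FPKM. *ALD6*, an acetaldehyde dehydrogenase gene, had 1062 and 1124 FPKM without HU and 734 and 748 FPKM at 2 h, and its call (limma adjusted p = 0.031) was lost without any one of the 4 libraries.

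Some of the 15 largest rises and falls rest on loci that are hard to read. YDR015C overlaps YDR014W-A entirely, YOR121C shares 83.3% of its length with YOR120W, and *YCR108C* was listed at 0 in both untreated libraries, with 10.3 and 8.44 FPKM at 2 h. *YLR194C*, a gene of the 15 largest falls outside all lists, fell from 159 and 93.7 FPKM to 29.1 and 23.5 FPKM. Beyond the rule for naming, the largest called fall of any member was that of the 76 bp tRNA gene tC(GCA)Q, with 162 and 177 FPKM without HU and listed at 0 in both 2 h libraries, where a single read is worth many FPKM.

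The changes at 2 h were also set between those at 1 h and 4 h. The 1 h and 4 h values share the untreated libraries with those at 2 h, so they are given side by side. Against 1 h, 52 members were higher and 169 lower at 2 h, against 0.774% and 2.42% of all tested genes. Against 2 h, 119 members were higher and 1657 lower at 4 h, against 1.76% and 23.8% of all tested genes, with a median step of -0.19 over all tested genes. Peaks at 2 h, that is genes called higher at 2 h than at 0, 1 and 4 h, numbered 2 by limma, and 0 or 1 without each of the 4 libraries in turn. They were *IAH1*, an esterase gene, with 30.4 and 30.4 FPKM without HU and 46.2 and 44.1 FPKM at 2 h, and the short YDL022C-A, with 2.43 and 2.66 FPKM and then 15.8 and 13.7 FPKM. The troughs, defined in the reverse way, were also 2, or 1 without the second untreated or the first 2 h library. The first was *YRA1*, an mRNA export factor gene, which went from 477 and 509 FPKM to 255 and 239.99 FPKM and had changes against untreated of -0.56 at 1 h, -0.99 at 2 h and -0.64 at 4 h. The other was YLR140W, 36.1% of which overlaps YLR141W.

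The lists took different courses. The medians given here are not centred, and those of all tested genes were 0.22, 0.16 and -0.03 at 1, 2 and 4 h. The median change of the separation genes was -0.86 at 1 h, -2.08 at 2 h and -2.25 at 4 h, and 10 of its 18 members were called lower at 2 h than at 1 h. In *DSE1* the change was -0.85 at 1 h and -3.45 at 2 h, and in *CTS1* -0.65 and -2.94. For the histones the medians were -1.66, -1.29 and -1.05, and 3 members were higher and 1 lower at 2 h than at 1 h. The *CLB2* cluster had medians of -0.48, -0.03 and 0.16, and 7 of its 21 members were called higher at 2 h than at 1 h and none lower. In the list of dNTP supply, *HUG1* had changes of 5.89, 7.55 and 8.34 at 1, 2 and 4 h and *RNR1* of 2.13, 1.59 and 1.47. The proteasome medians were 0.53, 0.36 and 0.05. Of its 34 members, 26 were called lower at 4 h than at 2 h, against 23.8% of all tested genes. In ribosome biogenesis the medians were -0.20, -0.36 and -0.72.

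**Figure D5:**
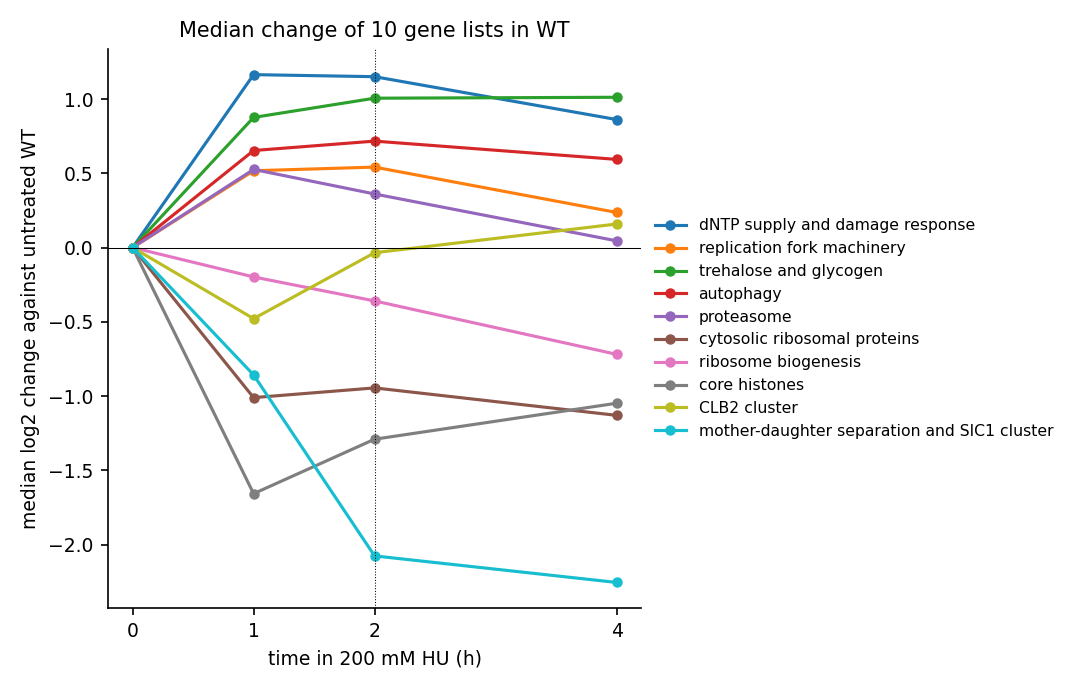
Median log2 change against untreated WT (vertical axis) of 10 gene lists at 1, 2 and 4 h of HU (horizontal axis, hours), with the untreated level set to 0 and a dotted line at 2 h. Separation genes reach -2.08 at 2 h from -0.86 at 1 h, whereas the dNTP list has medians of 1.16, 1.15 and 0.86. The values are not centred, and the medians of all tested genes, not drawn, were 0.22, 0.16 and -0.03.

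The same contrast in *lsm1∆* was compared with that in WT by an interaction term. It was higher in *lsm1∆* for 73 members and lower for 20, against 1.06% and 0.287% of all tested genes, but for only 1 to 25 members in all when 1 WT library was left out. *CLN2*, which fell by 1.12 in WT, had a change of -0.39 in *lsm1∆*, and the difference of 0.73 ± 0.10 had a limma adjusted p of 0.017.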

How the data were processed

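The study sequenced total RNA, freed of rRNA, from WT and *lsm1∆* cells in 16 libraries, 2 for each of 8 conditions. The authors aligned reads to sacCer3 with TopHat2 and estimated the deposited FPKM values with Cufflinks, and Cuffdiff is also named in the submitters' processing notes. Versions are not given in the sources used here. The libraries do not keep strand. Genes with a failed estimate in any of the 16 libraries (46) were left out. Of 7126 listed genes, the 6977 that reached 1 FPKM in 2 or more libraries were tested with limma 3.58.1 in R 4.3.3 on log2(FPKM + 1), with an empirical Bayes trend and Benjamini-Hochberg adjustment. The members and lists were chosen with earlier results of these data known. The named genes are *HUG1*, the *RNR* genes, *LSM1* and *YOX1*, the 15 largest called rises and falls among nuclear ORFs without a dash suffix whose groups did not overlap, up to 3 of each direction per list with the genes that define its role, the peaks and troughs at 2 h, and the 5 largest interactions in each direction. Motifs were counted on both strands in the 500 bases before each start codon, from RefSeq R64. Tables were handled in Python 3.11.15 with pandas 2.3.3, and figures drawn with matplotlib 3.10.9. A few list members are counted but not reported by name here. The fit was tested on simulated data. The FPKM tables keep no counts, so precision was judged from the replicates and the Cufflinks intervals. Alternatives were centring each library, a pseudocount of 0.1, other filters, fewer libraries in the fit, protein-coding genes only, a threshold of 0.01, a replicate block and each library left out in turn.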

Additional observations from a re-analysis of the deposited data

Results flagged for a closer look

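For 13 of the genes named, the change after 2 h of HU differed between WT and *lsm1∆* by limma's interaction term, given here as the log2 change of *lsm1∆* minus that of WT. The 5 largest called interactions in each direction were named by rule, so this count follows in large part from the choice of genes. Over all tested genes, 1.06% had a higher and 0.287% a lower change in *lsm1∆*, and among members 73 and 20 (1176 at an unadjusted p under 0.05). Only 1 to 25 members were called when 1 of the 4 WT libraries was left out, so these differences depend on single libraries.

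Lower changes in *lsm1∆* were found for *HUG1* (-1.53, adjusted p = 0.017), *ECM4* (-0.80, adjusted p = 0.021) and *GSC2* (-1.19, adjusted p = 0.021), in limma's test. *HUG1* rose by 7.55 in WT and by 6.01 in *lsm1∆*, which had 95.7 and 81.2 FPKM without HU and 6507 and 5106 FPKM at 2 h. The same was seen for *GND2* (-1.20), YOR302W (-1.21) and YAL031W-A (-1.37), of which the last shares 74.1% of its length with YAL031C.

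Higher changes in *lsm1∆* were found for *DSE2* (0.50), *CLN2* (0.73) and *SVS1* (1.51), with limma adjusted p = 0.047, 0.017 and 0.0058. *SVS1* had a change of -0.86 in WT and 0.64 in *lsm1∆*, where its level went from 119.5 and 104.6 FPKM to 176.2 and 174.4 FPKM. *OLE1*, the fatty acid desaturase gene (1.49), YKL187C (1.54), *CUP1-1* (1.28) and YBR131C-A (1.88) had higher changes too. *CUP1-1* is a near-identical copy of its neighbour, and YBR131C-A lies wholly within YBR131W.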

How the results depend on the processing

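Centring each library on its median gave 1221 members higher and 1425 lower, 1277 and 1431 tested genes, and 0 peaks at 2 h. A threshold of 0.01 left 538 members and 539 tested genes lower. The deviations of same-numbered libraries had a correlation of -0.029 between the WT groups compared, and of 0.236 and 0.147 between the strains at 0 and 2 h, which was too uneven to treat the numbers as pairs. With a replicate block, 2168 members were higher and 869 lower, with 187 members differing between strains, and with the replicate block and centring there were 1263 and 1517 members and 1320 and 1523 tested genes. Leaving out each WT library in turn gave 1416 to 1851 members higher and 574 to 705 lower, 1467 to 1921 and 575 to 707 tested genes, 0 to 1 peaks, 1 to 3 troughs and 1 to 25 members differing between strains. In these fits the lone sample is assumed to vary like the other groups. With the 4 compared libraries alone, 1415 members were higher and 663 lower. No called change of a named gene turned its direction in the settings run, and of the 145 named genes tested in all 13 settings 111 kept their side of the threshold throughout. The cause of the shifts was not tested. With 2 libraries per group the median standard error of members was 0.12 and the smallest change called was 0.15 in size. That is no limit of detection, as much larger changes, such as that of *FIT2*, were not called.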

Other observations

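The genes called higher and lower had different medians of length and level. Among 5332 nuclear protein-coding members, the 1882 called higher had a median length of 1416 bp and a median untreated level of 21.1 FPKM, against 1026 bp and 168 FPKM for the 702 called lower and 1220 bp and 31.0 FPKM for the 2748 not called. An intron was annotated in 3.51% of those higher, 14.7% of those lower and 4.37% of all. Ribosomal protein genes, many of which hold introns, are among those lower. Within 30 kb of a chromosome end lay 8.02% of those higher, 2.56% of those lower and 5.21% of all. These are descriptions of the called sets.

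Of 215 tRNA loci tested, 12 were called higher and 21 lower, against 31.1% and 11.9% of all tested genes, and 11 of the 12 are copies of tA(AGC) listed with identical values in each library. Of 83 small nuclear and nucleolar RNA genes, 1 was called higher and 8 lower, or 0 and 24 after centring, when 18.3% and 20.5% of all tested genes were called, with a median change of -0.23. Among 669 tested members under 300 bp, 80 were called higher and 82 lower, against the same 31.1% and 11.9%. These short loci include 11 members listed at 0 in both untreated libraries.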
